A study of Mus musculus with 33 samples.

Results

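The 50 genes described here run the cell cycle and copy DNA: 19 act in DNA replication, 12 in mitosis and 19 in the control of cyclin-dependent kinases (CDKs). They were taken as a named list, found by gene name or older gene name on an Agilent mouse array, and all 50 passed the filter that left 15860 genes for testing. Each of 33 arrays measured the RNA of 1 mouse blastocyst, and the strain was (C57BL/6NxDBA/2)F1. Clones came from nuclei of male adult Purkinje cells (XY Purkinje clones, n = 4), male adult hippocampal CA1 pyramidal cells (XY CA1 clones, n = 4) and neonatal Sertoli cells of the testis (n = 4), with 7 male in vitro fertilised (XY IVF) blastocysts beside them. The female groups were Purkinje clones (XX Purkinje, n = 4), CA1 clones (XX CA1, n = 4), cumulus cell clones (n = 3) and XX IVF blastocysts (n = 3). Clones of every group had been given the histone deacetylase inhibitor trichostatin A (50 nM), while they were activated for 1 h, while they were held in cytochalasin B for 5 h, and for a further 2 h. Culture lasted 96 h for clones and IVF embryos. Donor cell, cloning and trichostatin A therefore cannot be told apart in a difference between clones and IVF, and the labels do not give donor animals or cloning sessions, so a p-value here reflects the spread among these blastocysts alone, which may be technical.

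DNA replication is prepared by licensing. The origin recognition complex (Orc proteins) binds origins, Cdc6 and Cdt1 load the ring-shaped Mcm2 to Mcm7 helicase, and geminin (Gmnn) blocks Cdt1. Cdc45 and the GINS complex then switch the helicase on, and DNA polymerase alpha with its primase starts each new strand. Cyclins drive these steps through CDKs, cyclin E with Cdk2 at the entry into S phase and cyclin B with Cdk1 at the entry into mitosis.

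Values below are log2 levels of the processed signal over its 75th percentile on the same array, floored at -3.45, and a change is the clone mean minus the mean of IVF blastocysts of the same sex. A gene is said to have risen or fallen where limma's adjusted p over all 15860 genes was under 0.05. In a whole blastocyst fewer cells of a type and less RNA per cell cannot be told apart. The arrays differed in ways that touch these results. The arrays of IVF and cumulus blastocysts were an earlier set, read with another scanner and software version, so that for neuronal and Sertoli clones the array set cannot be told apart from cloning. Of the processed signals, 15.7% to 23.3% were at or below 0 on the earlier arrays and 0% on the newer ones. The part of this in the changes of dim genes was not tested. Each clone group lay on a slide of its own. Sertoli arrays had the smallest share of probes well above background, 45.4% to 46.2%. It was 56.2% to 61.2% on XY IVF, 58.7% to 62.5% on XY CA1 and 49.0% to 55.9% on XY Purkinje arrays. Purkinje arrays were dim: their signal's 75th percentile lay between 229.7 and 659.1 in XY Purkinje and between 353.8 and 838 in XX Purkinje arrays, against 904.3 to 1466 on all others, and 5 Purkinje arrays were under 500 (XY replicates 3 and 4, XX replicates 2, 3 and 4). The arrays held blastocyst RNA, with 8 of 8 trophectoderm markers measured and their summed level between 720.6 and 1549 times the 75th percentile on every array. The sum was 969.6 to 1549 in XY Purkinje, 787.5 to 918.7 in XY CA1 and 739.0 to 803.9 in Sertoli clones. In XY IVF blastocysts it was 895.5 to 1362, above every Sertoli clone. It was 1079 to 1325 in XX Purkinje, 720.6 to 962.9 in XX CA1 and 831.5 to 918.7 in cumulus clones. XX IVF blastocysts had 840.7 to 1030. Inner cell mass markers (7 of 8 measured) summed to 104.2 to 176.9 in XY Purkinje and 101.8 to 182.2 in XX Purkinje clones, against 72.0 to 82.0 in XY IVF and 66.6 to 96.4 in XX IVF blastocysts. The sums were 85.7 to 115.9 in XY CA1, 73.2 to 129.8 in Sertoli, 62.1 to 92.0 in XX CA1 and 97.3 to 106.5 in cumulus clones. Within that list Zfp42 rose by 1.68 (adjusted p = 4.35e-07) in XY and 1.78 (adjusted p = 5.92e-06) in XX Purkinje clones, Tdgf1 fell, with a change of -1.35 (adjusted p = 0.00829) and -1.6 (adjusted p = 0.0146), and no other member passed in Purkinje clones. Zfp42 also rose by 0.72 (adjusted p = 0.00343) in XY CA1, 0.74 (adjusted p = 0.00386) in Sertoli and 0.79 (adjusted p = 0.0479) in cumulus clones. Pou5f1 and Tdgf1 fell in Sertoli clones, with changes of -0.73 (adjusted p = 0.0157) and -1.1 (adjusted p = 0.0312). Of 8 primitive endoderm markers, all measured, 4 fell in each male clone group (Gata4, Sox7, Lama1 and Amn), 3 in XX Purkinje and XX CA1 clones (Gata4, Sox7 and Lama1) and 1 in cumulus clones (Gata4), while Gata6 rose in XY Purkinje and Sertoli clones. The part of these differences in the results below was not tested.

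Of the 50 genes, 46 were well above background on all 33 arrays and none was saturated. The 4 exceptions were regulators of G1 and of S phase entry. Cyclin D1 (Ccnd1) was well above background on 17 arrays, cyclin D2 (Ccnd2) on 8, Cdk6 on 28 and cyclin E2 (Ccne2) on 32. Ccnd2 lay on the floor on 30 arrays. In somatic cells the D cyclins and Cdk6 respond to growth signals.

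Against IVF blastocysts of the same sex, 33 of the 50 genes rose or fell in at least 1 of the 6 clone groups, beside 56.9% of all genes tested. No gene did so in more than 3 clone groups, 17 did so in none, and Orc1 alone moved in both directions. In Sertoli clones 15 of 50 rose and 3 fell (18 of 50), beside 25.7% of all genes (14.9% higher, 10.7% lower). In XY Purkinje clones 8 rose and 3 fell, beside 28.6% of all genes (18.3% higher, 10.3% lower). In XY CA1 clones 3 rose and 7 fell, beside 30.9% of all genes (17.6% higher, 13.3% lower). Among female clones 3 rose and 5 fell with Purkinje donors, beside 19.7% of all genes (13.1% higher, 6.66% lower), and 2 rose and 2 fell with CA1 donors, beside 13.3% (8.39% higher, 4.9% lower). In cumulus clones none rose and 4 fell, all of them replication genes, beside 5.29% of all genes (1.95% higher, 3.34% lower). At an unadjusted limma p under 0.05, 19 of the 50 genes were past the threshold in XY Purkinje, 16 in XY CA1 and 22 in Sertoli clones. The counts were 12 in XX Purkinje, 15 in XX CA1 and 17 in cumulus clones, and the shares of all genes at that threshold were not counted. At an adjusted p under 0.05, the shares of the 50 genes called in the neuronal clones were under those of all genes at this scaling.

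The split between rises and falls moved with the scaling. In XY Purkinje clones 0 genes were called higher and 11 lower with median scaling, 1 and 15 with quantile normalization, and 3 and 9 with normexp background correction. In Sertoli clones the same 3 settings gave 5 higher and 2 lower, 7 and 4, and 2 and 1. In XX Purkinje clones they gave 0 and 17, 1 and 12, and 2 and 9, and in XY CA1 clones 2 and 7, 2 and 14, and 0 and 2. In XX CA1 clones they gave 0 and 1, 0 and 7, and 0 and 1. Over all genes in XY Purkinje clones, 6.73% were called higher and 16.3% lower with median scaling, 11.8% and 13.4% with quantile normalization, and 21.8% and 9.74% with normexp. The same shares in XX Purkinje clones were 2.93% and 17.6%, 7.48% and 8.77%, and 18.5% and 5.61%. In Sertoli clones they were 8.7% and 12.1%, 11.2% and 12.9%, and 6.97% and 5.34%. Counted in either direction, 20.8%, 24.1% and 12.3% of all genes were called in Sertoli clones. In XY CA1 clones the shares were 10.6% and 16.2%, 15.39% and 15.25%, and 11.6% and 7.86%. In XX CA1 clones they were 5.06% and 4.86%, 5% and 6.59%, and 2.16% and 1.71%. Which clone group had the most calls therefore depended on the scaling.

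**Figure D1:**
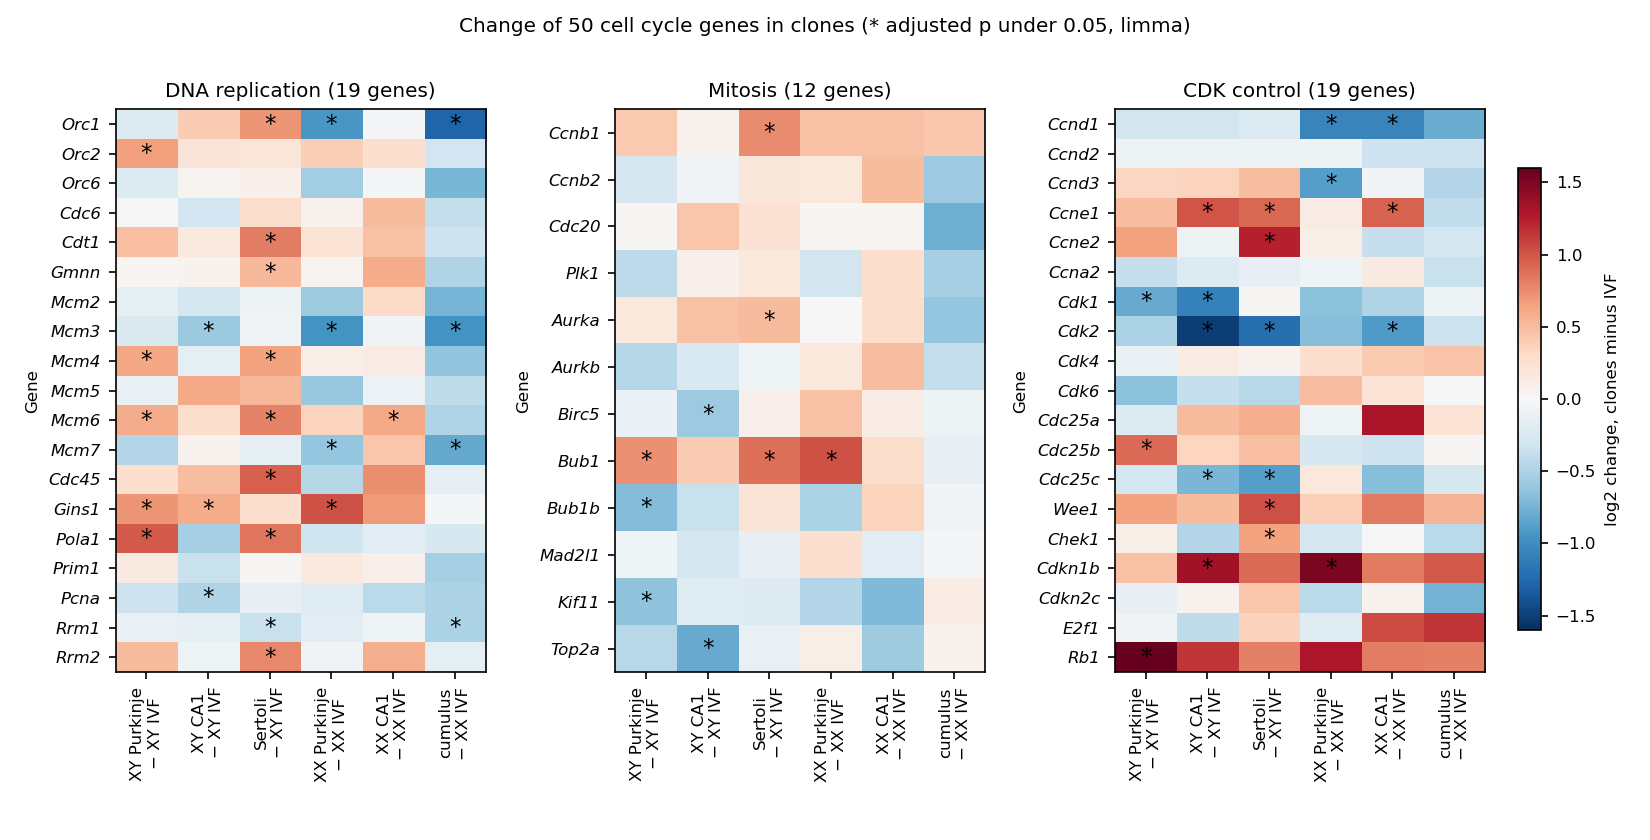
Change of each of the 50 genes in 6 clone groups against IVF blastocysts of the same sex, as the difference of mean log2 levels (colour, clones minus IVF), with genes in rows grouped by role and a star where limma's adjusted p was under 0.05. Sertoli clones carry 15 stars on genes that rose, and all 19 replication genes are lower in cumulus clones, 4 of them past the test.

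The calls were not equally firm. Of the 55 calls against IVF, 22 were kept when any 1 array was left out, 12 under each of 3 other scalings and 7 under both. Of the 31 rises 20 were lost under all 3 other scalings, 7 of 8 in XY Purkinje, 8 of 15 in Sertoli, 2 of 3 in XX Purkinje, 1 of 3 in XY CA1 and 2 of 2 in XX CA1 clones, and of the 24 falls 0 were. The rises lost were Orc2, Mcm4, Mcm6, Gins1, Pola1, Bub1 and Cdc25b in XY Purkinje clones, Gmnn, Mcm4, Pola1, Rrm2, Ccnb1, Aurka, Bub1 and Chek1 in Sertoli clones, Gins1 and Bub1 in XX Purkinje clones, Gins1 in XY CA1 clones, and Mcm6 and Ccne1 in XX CA1 clones. Median scaling also took the share of all genes called higher from 18.3% to 6.73% in XY Purkinje, 14.9% to 8.7% in Sertoli and 13.1% to 2.93% in XX Purkinje clones. The share called lower grew in these 3 groups. With normexp the shares called higher were 21.8%, 6.97% and 18.5%. The loss under all 3 scalings was not counted over all genes. The 7 calls kept throughout were Orc1 in cumulus clones, Mcm3 in XX Purkinje clones, Cdc45 and Cdk2 in Sertoli clones, Cdk1 in XY Purkinje clones, and Cdk1 and Cdk2 in XY CA1 clones. Without the 5 dim Purkinje arrays, 3 genes were called in XY Purkinje clones (Kif11, Top2a and Aurkb, all lower). Of all genes 10.6% were called there, against 28.6% with every array. In XX Purkinje clones 1 array was then left, so no count is given. Every log2 change against IVF called in XY or XX Purkinje clones kept its sign without the dim arrays.

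**Figure D2:**
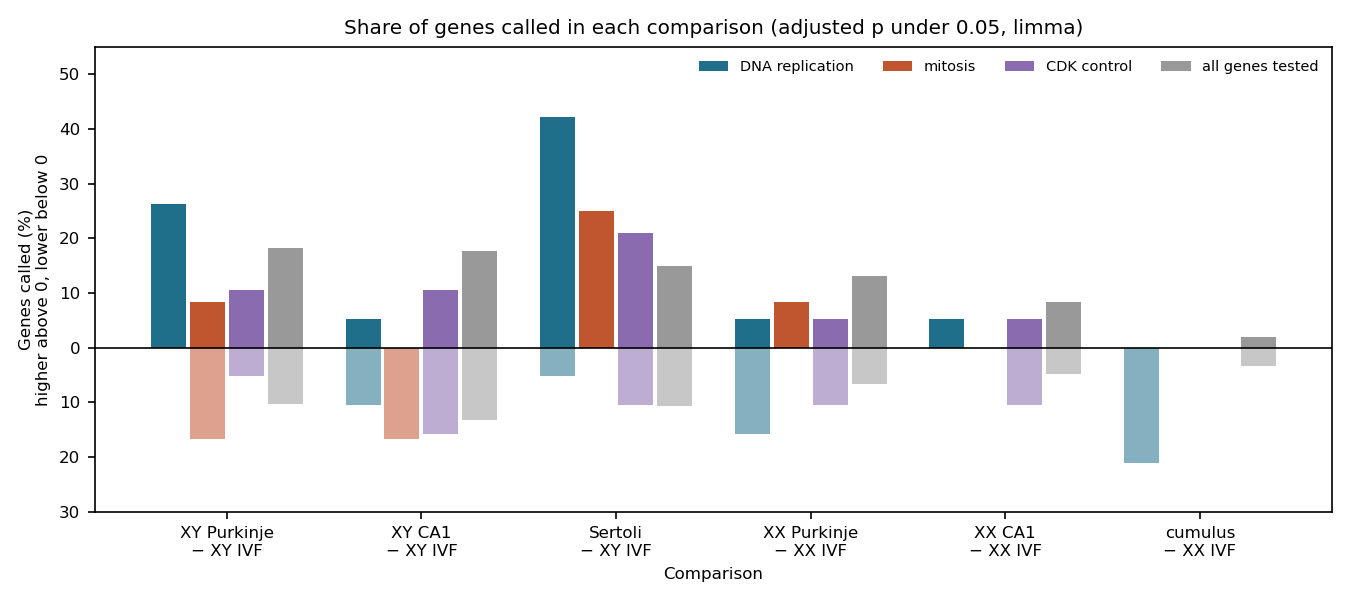
Share of genes called in each of the 6 comparisons with IVF blastocysts, in percent, higher above and lower below the zero line, for the 19 replication, 12 mitosis and 19 CDK control genes and for all 15860 genes tested (grey). Replication genes reach 8 of 19 higher in Sertoli clones and 4 of 19 lower in cumulus clones.

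Among the proteins that mark and license origins, Orc1, the largest subunit of the origin recognition complex, had the widest range of changes. Its level was 1.27, 0.62, 1.54 and 0.86 in XY Purkinje clones, 1.7, 2.11, 1.62 and 1.36 in XY CA1 clones, 2.03, 1.76, 2.02 and 2.2 in Sertoli clones, against 1.0 to 1.65 (median 1.32, n = 7) in XY IVF blastocysts. Every Sertoli clone lay above every XY IVF blastocyst, and the change was 0.71 ± 0.19 (SE, adjusted p = 0.0082). On the female side it was 1.43, 1.22, 1.24 and 1.04 in XX Purkinje clones, 2.17, 2.67, 1.58 and 2.19 in XX CA1 clones, 1.04, 0.68 and 0.92 in cumulus clones, against 2.61, 2.13 and 1.77 in XX IVF blastocysts. All XX Purkinje and all cumulus clones lay below the lowest XX IVF blastocyst, with changes of -0.94 ± 0.24 (SE, adjusted p = 0.00615) and -1.29 ± 0.25 (SE, adjusted p = 0.0042), while XX CA1 clones overlapped with IVF. The fall in XX Purkinje clones was not called without XX IVF replicate 1 (adjusted p = 0.0562) or without the dim arrays (-0.74, adjusted p = 0.314).

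Of the other genes that mark and license origins, Orc2, Cdt1 and Gmnn passed the test in 1 comparison with IVF each. Orc2, a core subunit of the same complex, was 4.58, 4.41, 4.61 and 4.69 in XY Purkinje clones, against 3.55 to 4.23 (median 3.88, n = 7) in XY IVF blastocysts, without overlap, and rose by 0.65 ± 0.19 (SE, adjusted p = 0.0099), which none of the 3 other scalings called. Cdt1, the helicase loader, rose in Sertoli clones by 0.82 ± 0.21 (SE, adjusted p = 0.00519). It was 5.42, 5.1, 5.49 and 5.26 in XY Purkinje clones, 5.53, 5.73, 5.5 and 5.85 in Sertoli clones, against 4.66 to 5.01 (median 4.87, n = 7) in XY IVF blastocysts, so that every Sertoli and every XY Purkinje clone was above every XY IVF blastocyst, and the XY Purkinje change of 0.48 (adjusted p = 0.0896) did not pass. Gmnn, which holds Cdt1 back, rose there as well, by 0.51 ± 0.19 (SE, adjusted p = 0.041), a call lost without XY IVF replicate 2 or 3 or Sertoli replicate 1, 2, 3 or 4 (adjusted p 0.0575 to 0.125). Cdc6, the partner of Cdt1 in loading, and Orc6 passed the test in no comparison with IVF, with changes between -0.39 in cumulus clones and 0.5 in XX CA1 clones for Cdc6.

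The 6 helicase subunits did not move as a block. Mcm6 rose in 3 clone groups and Mcm4 in 2, whereas Mcm3 fell in 3 and Mcm7 in 2, and Mcm2 and Mcm5 passed the test in none. Mcm6 was 6.85, 6.97, 7.49 and 6.95 in XY Purkinje clones, 6.58, 7.03, 6.78 and 6.62 in XY CA1 clones, 7.25, 7.19, 7.19 and 7.4 in Sertoli clones, against 6.11 to 6.79 (median 6.56, n = 6) in XY IVF blastocysts, with 1 XY IVF spot left out as an outlier. The Purkinje and Sertoli clones were all above the IVF range, by 0.59 ± 0.17 (SE, adjusted p = 0.01) and 0.79 ± 0.17 (SE, adjusted p = 0.00122). The rise in XY Purkinje clones turned round to -0.26 (adjusted p = 0.591) with normexp background correction, and was not called with median scaling, with quantile normalization or without XY Purkinje replicate 3 (adjusted p = 0.0701). On the female side Mcm6 was 6.9, 6.98, 7.15 and 6.79 in XX Purkinje clones, 7.65, 7.15, 6.69 and 7.34 in XX CA1 clones, 6.3, 5.9 and 6.18 in cumulus clones, against 6.43, 6.7 and 6.68 in XX IVF blastocysts. XX CA1 clones rose by 0.6 ± 0.2 (SE, adjusted p = 0.0447), though the lowest overlapped with IVF, and the rise was not called without XX IVF replicate 1, 2 or 3 or XX CA1 replicate 1, 2 or 4 (adjusted p 0.0667 to 0.168).

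Mcm3 went the other way. It was 4.85, 5.38, 5.69 and 5.05 in XY Purkinje clones, 4.69, 4.94, 5.17 and 4.72 in XY CA1 clones, 5.54, 5.08, 5.42 and 5.62 in Sertoli clones, against 5.18 to 5.81 (median 5.42, n = 7) in XY IVF blastocysts, and XY CA1 clones lay wholly below XY IVF, with a change of -0.59 ± 0.21 (SE, adjusted p = 0.029). That call was lost without XY IVF replicate 4 or 5 or XY CA1 replicate 1, 2 or 4 (adjusted p 0.051 to 0.0902). In females Mcm3 was 4.89, 5.1, 5.04 and 5.01 in XX Purkinje clones, 6.42, 5.96, 5.46 and 5.77 in XX CA1 clones, 5.23, 4.22 and 5.54 in cumulus clones, against 5.93, 5.99 and 5.96 in XX IVF blastocysts. The 4 Purkinje and the 3 cumulus clones were all below the 3 IVF blastocysts, whose values lay close together. The changes were -0.95 ± 0.25 (SE, adjusted p = 0.00851) and -0.96 ± 0.27 (SE, adjusted p = 0.035). Cumulus replicate 2 was the lowest, and the cumulus call was lost without XX IVF replicate 1, 2 or 3 or cumulus replicate 2 (adjusted p 0.0681 to 0.258), and the change was -0.57 without that clone. Another probe of Mcm3 had changes of -1.66 in XY CA1, -1.67 in XX Purkinje and -0.85 in cumulus clones.

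Mcm7 was 5.75, 5.41, 5.48 and 5.2 in XX Purkinje clones, 5.5, 4.99 and 5.31 in cumulus clones, against 5.96, 6.32 and 5.97 in XX IVF blastocysts. Both clone groups lay below every IVF value, with a change of -0.62 ± 0.22 (SE, adjusted p = 0.0454) for Purkinje and -0.82 ± 0.23 (SE, adjusted p = 0.0408) for cumulus donors. The Purkinje call was lost without XX Purkinje replicate 2, 3 or 4 or XX IVF replicate 1, 2 or 3 (adjusted p 0.0652 to 0.185), and the cumulus call without XX IVF replicate 1, 2 or 3 or cumulus replicate 2 or 3 (adjusted p 0.0578 to 0.181). Mcm4 rose by 0.62 ± 0.22 (SE, adjusted p = 0.0369) in XY Purkinje and 0.64 ± 0.22 (SE, adjusted p = 0.0337) in Sertoli clones, with overlap with IVF in each. In the XY Purkinje group the dim replicates 3 and 4 stood highest, at 7.41 and 6.99 against 6.51 and 6.63 in replicates 1 and 2, and the rise was not called without XY Purkinje replicate 3 or 4 or XY IVF replicate 2, 6 or 7 (adjusted p 0.0592 to 0.19). The rise in Sertoli clones was not called without XY IVF replicate 2, 6 or 7 or Sertoli replicate 1, 3 or 4 (adjusted p 0.0541 to 0.0909).

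**Figure D3:**
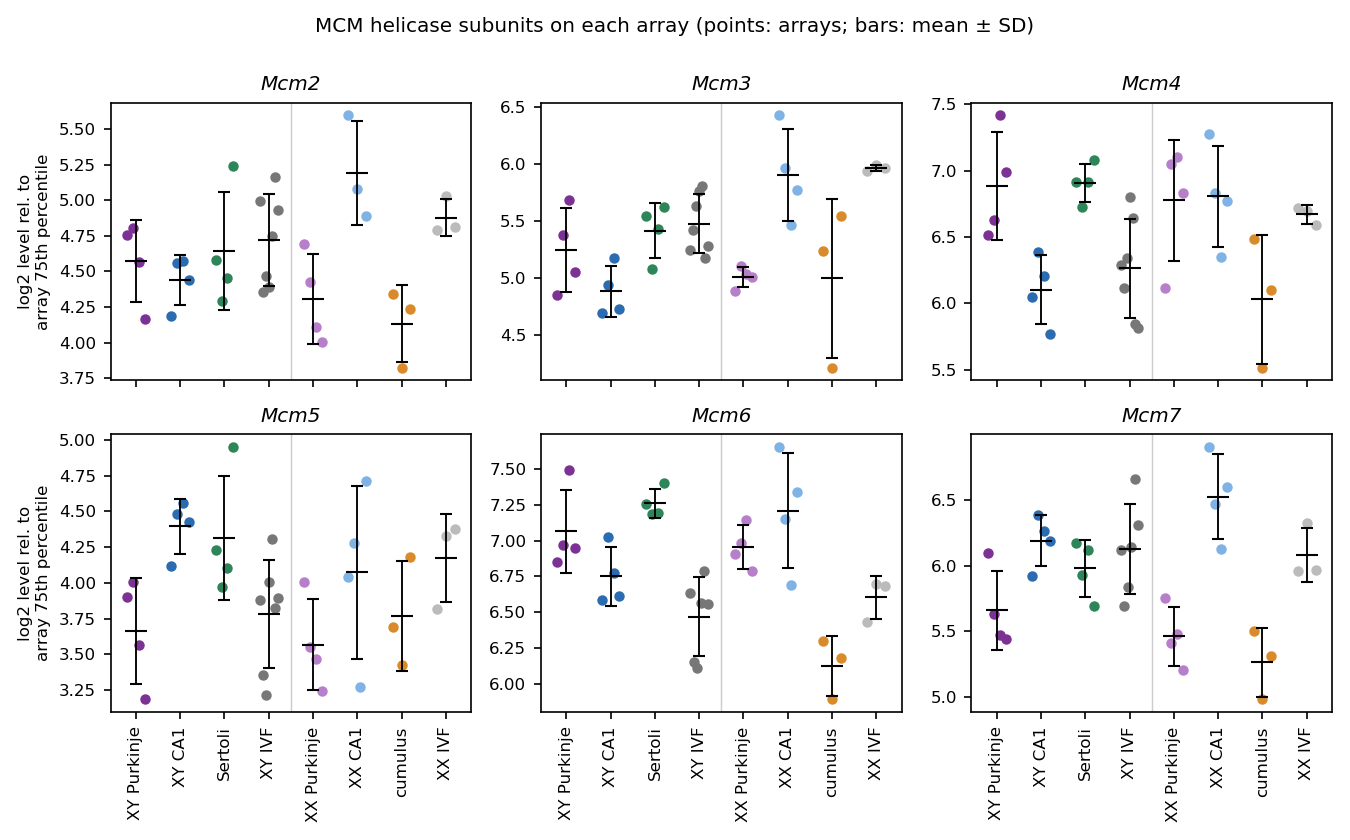
Levels of the 6 helicase subunits on each array (log2 relative to the array's 75th percentile), by group, with mean and SD bars and a line between male and female groups. Mcm6 is high in Sertoli clones and Mcm3 and Mcm7 are low in XX Purkinje and cumulus clones, beside their IVF blastocysts.

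Cdc45 and Gins1, partners that turn the loaded ring into a working helicase, differed in where they rose. Cdc45 was 1.71, 1.74, 1.91 and 1.86 in Sertoli clones, against 0.46 to 1.33 (median 0.8, n = 7) in XY IVF blastocysts. It rose by 0.96 ± 0.22 (SE, adjusted p = 0.00175), the largest rise in Sertoli clones among the 19 replication genes. Every left-out array and each of the 3 scalings kept the call. Gins1 was 5.1, 4.97, 5.33 and 4.93 in XY Purkinje clones, 5.01, 5.21, 4.8 and 4.85 in XY CA1 clones, 4.73, 4.54, 4.36 and 4.88 in Sertoli clones, against 3.74 to 4.69 (median 4.5, n = 7) in XY IVF blastocysts. Both neuronal groups lay above the whole IVF range, by 0.71 ± 0.2 (SE, adjusted p = 0.00794) in Purkinje and 0.6 ± 0.2 (SE, adjusted p = 0.0212) in CA1 clones. The CA1 rise was not called without XY CA1 replicate 1 or 2 (adjusted p 0.0503 to 0.08). In females it was 5.09, 5.67, 5.21 and 5.12 in XX Purkinje clones, 5.47, 5.07, 4.57 and 4.63 in XX CA1 clones, 4.74, 3.9 and 4.0 in cumulus clones, against 4.27, 4.13 and 4.34 in XX IVF blastocysts, and XX Purkinje clones rose by 1.02 ± 0.24 (SE, adjusted p = 0.00354). None of the 3 other scalings called any of these 3 rises, and without the dim arrays the changes were 0.66 (adjusted p = 0.0982) in XY and 0.84 (adjusted p = 0.264) in XX Purkinje clones. Another Gins1 probe changed by 0.02 in XY Purkinje, -0.40 in XY CA1 and 0.69 in XX Purkinje clones, so the probes disagreed for the male groups.

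Pola1, the catalytic subunit of DNA polymerase alpha, is X-linked. It was 4.01, 4.2, 5.08 and 5.0 in XY Purkinje clones, 3.08, 3.23, 3.07 and 2.86 in XY CA1 clones, 4.51, 4.61, 4.06 and 4.6 in Sertoli clones, against 2.87 to 4.28 (median 3.66, n = 7) in XY IVF blastocysts. It rose by 0.99 ± 0.25 (SE, adjusted p = 0.00358) in XY Purkinje and 0.86 ± 0.25 (SE, adjusted p = 0.0112) in Sertoli clones, with overlap with IVF in each, and none of the 3 other scalings called either. Again XY Purkinje replicates 3 and 4, the dim arrays, were the highest, and without both the change was 0.52 (adjusted p = 0.291). Prim1, the primase subunit that works with it, passed no test against IVF. Pcna, the sliding clamp of the polymerases, fell, with a change of -0.49 ± 0.17 (SE, adjusted p = 0.0344) in XY CA1 clones, a call lost without XY IVF replicate 2, 3 or 5 or XY CA1 replicate 4 (adjusted p 0.0529 to 0.238). The ribonucleotide reductase subunits, which supply deoxynucleotides, had opposite signs in Sertoli clones: Rrm2 rose by 0.77 ± 0.23 (SE, adjusted p = 0.0135) and Rrm1 fell, with a change of -0.35 ± 0.11 (SE, adjusted p = 0.0193). None of the 3 other scalings called Rrm2 there, and 2 of them did not call Rrm1. Rrm1 also fell in cumulus clones, with a change of -0.5 ± 0.14 (SE, adjusted p = 0.041). The Sertoli call of Rrm1 was lost without Sertoli replicate 2 or 3 (adjusted p 0.0592 to 0.0702), and the cumulus call without XX IVF replicate 1, 2 or 3 or cumulus replicate 2 or 3 (adjusted p 0.0514 to 0.159).

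By group, 5 replication genes rose in XY Purkinje clones (26.3% of the 19, beside 28.6% of all genes), 1 rose and 2 fell in XY CA1 clones (15.8%, beside 30.9%), and 8 rose and 1 fell in Sertoli clones (47.4%, beside 25.7%). In females 1 rose and 3 fell in Purkinje clones (21.1%, beside 19.7%), 1 rose in CA1 clones (5.26%, beside 13.3%) and 4 fell in cumulus clones (21.1%, beside 5.29%). With median scaling, quantile normalization and normexp, the replication genes called higher numbered 0, 0 and 0 in XY Purkinje and 3, 4 and 2 in Sertoli clones, and those called lower 2, 6 and 2 in XY Purkinje, 0, 1 and 0 in Sertoli and 9, 8 and 6 in XX Purkinje clones. Cumulus clones were the only group in which all 19 changes had the same sign, from -1.29 for Orc1 to -0.04, with a median of -0.48 beside -0.02 over all genes. That median was negative under each of the 3 other scalings as well (-0.39 to -0.52). The replication genes called lower in cumulus clones numbered 1, 5 and 1 under these scalings, beside 1.67%, 4.56% and 0.845% of all genes. Without cumulus replicate 2, 1 of the 4 calls was kept, where 1.4% of all genes were called in either direction. A fit on only the groups compared kept 0, where 1.41% of all genes were called. The cumulus and IVF arrays belonged to the same earlier set but to different slides.

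Promoters of replication and mitosis genes are known for E2F sites and for the cell cycle homology region (CHR), so their letters are set beside the values. RefSeq promoter windows of GRCm38.p6, each 300 bases from 250 before to 50 after the start, were matched for 39 of the 50 genes. E2F sites were searched as TTTCCCGC, TTTGGCGC, TTTCGCGC and TTTGCCGC, and the CHR as TTTGAA, on both strands. An E2F match stood in 8 of 16 replication, 0 of 11 mitosis and 3 of 12 CDK control windows, beside 2.316% of all 27025 windows. A CHR match stood in 2 of 16, 7 of 11 and 1 of 12, beside 18.1% of all. CCAAT, searched the same way, stood in 14 of 16, 9 of 11 and 5 of 12 windows, beside 37.9% of all. The windows of 5 genes are shown because these moved in opposite directions: Mcm6, which rose, Mcm3, Mcm7 and Cdk1, which fell, and Top2a, which fell and carries CHR matches without an E2F match. Capitals mark E2F matches and, in Cdk1 and Top2a, also CHR matches. 
Mcm6: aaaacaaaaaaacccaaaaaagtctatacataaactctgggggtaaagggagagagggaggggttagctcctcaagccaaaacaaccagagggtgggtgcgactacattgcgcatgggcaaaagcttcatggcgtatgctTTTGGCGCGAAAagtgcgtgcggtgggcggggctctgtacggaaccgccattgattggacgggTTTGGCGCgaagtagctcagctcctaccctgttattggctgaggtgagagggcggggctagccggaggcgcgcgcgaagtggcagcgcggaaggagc
Mcm3: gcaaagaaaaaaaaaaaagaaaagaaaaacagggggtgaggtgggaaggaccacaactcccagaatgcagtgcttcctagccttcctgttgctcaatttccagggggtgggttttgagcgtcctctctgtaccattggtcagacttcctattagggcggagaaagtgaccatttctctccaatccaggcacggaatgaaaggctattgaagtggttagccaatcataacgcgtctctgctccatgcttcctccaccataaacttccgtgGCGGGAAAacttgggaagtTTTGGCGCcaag
Mcm7: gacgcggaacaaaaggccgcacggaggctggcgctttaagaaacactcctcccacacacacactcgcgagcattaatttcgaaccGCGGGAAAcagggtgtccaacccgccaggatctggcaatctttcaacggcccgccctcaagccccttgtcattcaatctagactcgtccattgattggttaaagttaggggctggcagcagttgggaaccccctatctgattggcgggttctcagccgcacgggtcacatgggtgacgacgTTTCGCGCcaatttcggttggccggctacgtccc
Cdk1: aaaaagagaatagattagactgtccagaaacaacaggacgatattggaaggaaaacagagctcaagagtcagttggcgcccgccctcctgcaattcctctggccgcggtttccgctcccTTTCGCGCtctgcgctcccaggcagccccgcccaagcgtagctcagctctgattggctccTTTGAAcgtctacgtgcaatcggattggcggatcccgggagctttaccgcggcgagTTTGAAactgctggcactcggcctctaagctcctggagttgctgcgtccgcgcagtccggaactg
Top2a: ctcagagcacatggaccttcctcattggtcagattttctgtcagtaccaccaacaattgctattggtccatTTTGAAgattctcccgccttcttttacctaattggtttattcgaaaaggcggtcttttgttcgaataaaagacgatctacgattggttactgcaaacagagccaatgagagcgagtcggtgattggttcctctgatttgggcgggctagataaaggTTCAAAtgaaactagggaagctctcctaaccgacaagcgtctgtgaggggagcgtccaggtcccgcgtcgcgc
They lie at chr1:128359656-128359955 (- strand), chr1:20820263-20820562 (- strand), chr5:138171834-138172133 (- strand), chr10:69352863-69353162 (- strand) and chr11:99024140-99024439 (- strand), and are printed on the gene's strand, 5′ to 3′. Mcm6 has 3 E2F matches, 2 of which overlap, and Mcm3 and Mcm7 have 2 each. A match is a description of the letters in this window.

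Mitosis genes changed in few groups. Bub1, a kinase of the spindle checkpoint, rose in 3. It was 3.68, 3.99, 5.07 and 4.65 in XY Purkinje clones, 3.52, 4.05, 4.12 and 4.4 in XY CA1 clones, 4.59, 4.55, 4.45 and 4.43 in Sertoli clones, against 3.18 to 4.2 (median 3.51, n = 7) in XY IVF blastocysts. Sertoli clones lay close together above the whole IVF range, by 0.89 ± 0.27 (SE, adjusted p = 0.0151), whereas XY Purkinje clones, by 0.73 ± 0.27 (SE, adjusted p = 0.0402), spread widely and overlapped with IVF. The female values were 3.93, 4.98, 5.28 and 5.06 in XX Purkinje clones, 4.25, 3.91, 4.06 and 4.07 in XX CA1 clones, 4.35, 3.03 and 3.6 in cumulus clones, against 3.82, 3.68 and 3.87 in XX IVF blastocysts, a rise of 1.02 ± 0.33 (SE, adjusted p = 0.0266) in XX Purkinje clones. In both sexes the dim Purkinje arrays were the highest, XY replicates 3 and 4 and XX replicates 2, 3 and 4. Without them the change was 0.22 (adjusted p = 0.689) in XY and 0.14 (adjusted p = 0.993) in XX Purkinje clones. The XY call was also lost without XY Purkinje replicate 3 or 4 or XY IVF replicate 1, 2, 6 or 7 (adjusted p 0.06 to 0.223), and the XX call without XX Purkinje replicate 2, 3 or 4 or XX IVF replicate 1, 2 or 3 (adjusted p 0.0588 to 0.0878). None of the 3 other scalings called Bub1 in Purkinje or Sertoli clones.

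Ccnb1, cyclin B1, which drives entry into mitosis, was 5.03, 5.78, 6.32 and 6.41 in XY Purkinje clones, 5.51, 6.08, 5.13 and 5.43 in XY CA1 clones, 6.42, 6.6, 6.11 and 5.75 in Sertoli clones, against 5.08 to 6.12 (median 5.32, n = 7) in XY IVF blastocysts. It rose in Sertoli clones by 0.76 ± 0.25 (SE, adjusted p = 0.0252), though the ranges overlapped, a call lost without XY IVF replicate 6 or Sertoli replicate 1 or 2 (adjusted p 0.0504 to 0.105). In females it was 6.03, 6.36, 6.5 and 6.21 in XX Purkinje clones, 6.52, 6.39, 5.86 and 6.3 in XX CA1 clones, 6.85, 5.86 and 6.01 in cumulus clones, against 5.65, 5.91 and 5.85 in XX IVF blastocysts. All 4 XX Purkinje clones were above XX IVF, but the change of 0.47 did not pass. Aurka, the kinase of spindle poles, rose in Sertoli clones by 0.51 ± 0.19 (SE, adjusted p = 0.0491), a call lost without XY IVF replicate 1, 3, 4, 5, 6 or 7 or Sertoli replicate 1, 2 or 4 (adjusted p 0.053 to 0.214).

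The falls among mitosis genes were in male neuronal clones. Top2a, the topoisomerase that untangles chromosomes, was 1.38, 1.39, 2.17 and 2.31 in XY Purkinje clones, 1.33, 1.71, 1.02 and 1.73 in XY CA1 clones, 2.44, 2.29, 1.83 and 1.99 in Sertoli clones, against 1.7 to 2.85 (median 2.27, n = 7) in XY IVF blastocysts. XY CA1 clones fell, with a change of -0.81 ± 0.22 (SE, adjusted p = 0.006), though 2 of them lay just above the lowest IVF value. Its female values were 2.29, 2.38, 2.92 and 2.26 in XX Purkinje clones, 1.5, 1.97, 1.78 and 1.93 in XX CA1 clones, 2.69, 1.95 and 2.64 in cumulus clones, against 2.52, 2.39 and 2.2 in XX IVF blastocysts, where all 4 XX CA1 clones were below IVF and the change of -0.57 did not pass. Kif11, the motor that pushes spindle poles apart, was 0.94, 1.4, 1.77 and 1.91 in XY Purkinje clones, 2.05, 2.11, 1.74 and 1.92 in XY CA1 clones, 2.04, 2.07, 1.54 and 2.14 in Sertoli clones, against 1.46 to 2.69 (median 2.19, n = 7) in XY IVF blastocysts. XY Purkinje clones fell, with a change of -0.65 ± 0.2 (SE, adjusted p = 0.0164), with overlap, a call lost without XY Purkinje replicate 1 (adjusted p = 0.103), where that clone was the lowest. Female Kif11 levels were 2.05, 1.81, 1.93 and 1.98 in XX Purkinje clones, 1.73, 1.61, 1.77 and 1.7 in XX CA1 clones, 2.71, 2.53 and 2.36 in cumulus clones, against 2.18, 2.79 and 2.25 in XX IVF blastocysts, with no change past the test. Another Kif11 probe changed by 0.10 in XY Purkinje clones, so the fall rests on 1 probe. Bub1b, the checkpoint protein BubR1, fell, with a change of -0.7 ± 0.23 (SE, adjusted p = 0.0233) in XY Purkinje clones, a call lost without XY Purkinje replicate 3 (adjusted p = 0.0722), and Birc5, survivin, with a change of -0.58 ± 0.19 (SE, adjusted p = 0.0194) in XY CA1 clones, a call lost without XY CA1 replicate 4 (adjusted p = 0.0987). Ccnb2, Cdc20, Plk1, Aurkb and Mad2l1 passed in no comparison with IVF. Without the dim arrays Aurkb was called in XY Purkinje clones, at -0.78 (adjusted p = 0.0148), and Top2a at -0.87 (adjusted p = 0.0301).

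**Figure D4:**
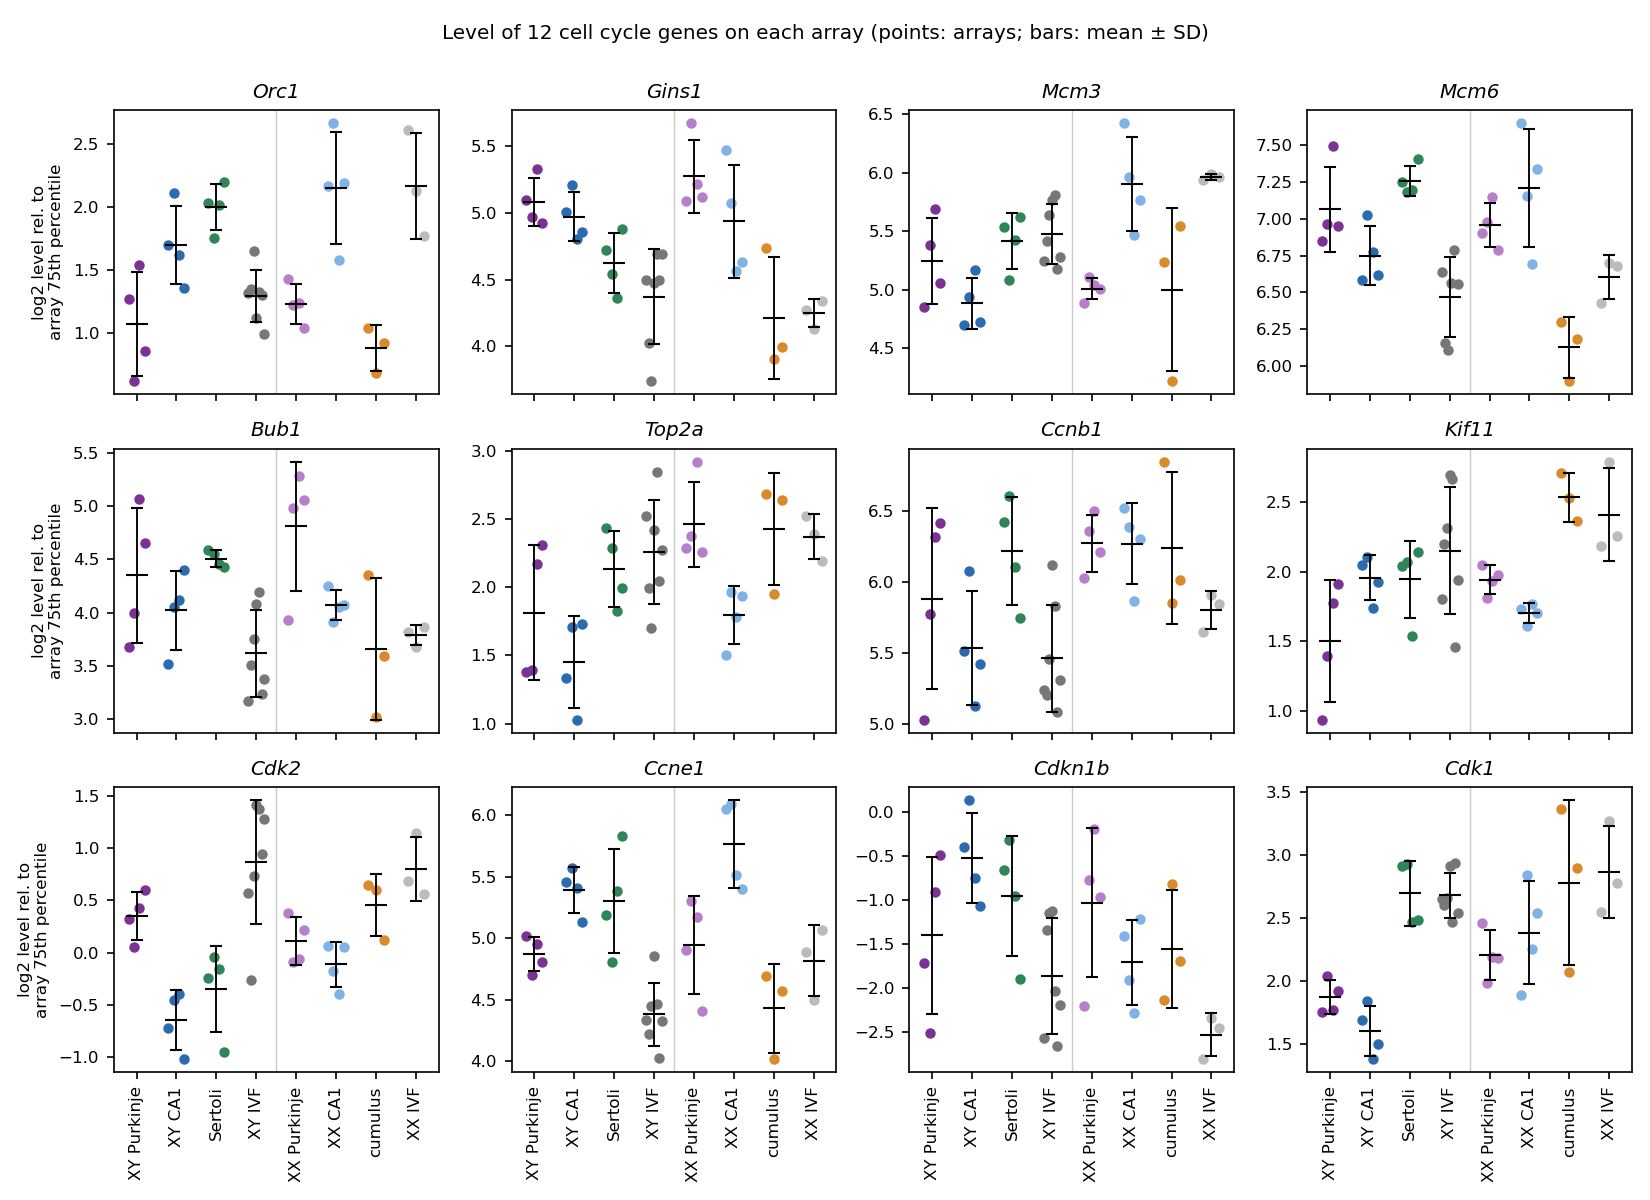
Levels of 12 genes on each array (log2 relative to the array's 75th percentile), 4 per role, by group, with mean and SD bars and a line between male and female groups. Cdk1 is lower in both XY neuronal clone groups than in Sertoli clones and XY IVF blastocysts, and Orc1 is lower in XX Purkinje and cumulus clones than in XX IVF blastocysts.

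CDK control genes held the largest changes among those called. Cdk1, the kinase of mitotic entry, separated the male neuronal clones from the other male groups. It was 1.75, 2.04, 1.78 and 1.92 in XY Purkinje clones, 1.69, 1.84, 1.38 and 1.5 in XY CA1 clones, 2.91, 2.93, 2.47 and 2.48 in Sertoli clones, against 2.47 to 2.94 (median 2.65, n = 7) in XY IVF blastocysts. No neuronal clone reached the lowest Sertoli or IVF value. Its changes against IVF were -0.81 ± 0.2 (SE, adjusted p = 0.00279) in Purkinje and -1.08 ± 0.2 (SE, adjusted p = 0.000126) in CA1 clones, and 0.01 in Sertoli clones, which did not pass. In females Cdk1 was 2.46, 1.99, 2.19 and 2.18 in XX Purkinje clones, 1.89, 2.85, 2.26 and 2.54 in XX CA1 clones, 3.37, 2.07 and 2.9 in cumulus clones, against 2.55, 3.27 and 2.78 in XX IVF blastocysts, with changes of -0.66 in Purkinje and -0.48 in CA1 clones that did not pass. Without the dim arrays the XY Purkinje change was -0.78 (adjusted p = 0.0596).

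Cdk2, the partner of cyclin E, was 0.32, 0.06, 0.42 and 0.6 in XY Purkinje clones, -0.72, -0.45, -0.39 and -1.02 in XY CA1 clones, -0.24, -0.04, -0.15 and -0.95 in Sertoli clones, against -0.27 to 1.41 (median 0.95, n = 7) in XY IVF blastocysts. It fell, with a change of -1.51 ± 0.24 (SE, adjusted p = 2.47e-05) in XY CA1 and -1.21 ± 0.24 (SE, adjusted p = 0.000529) in Sertoli clones, the CA1 clones without overlap with IVF. Its female levels were 0.38, -0.09, -0.06 and 0.22 in XX Purkinje clones, 0.06, -0.17, -0.4 and 0.05 in XX CA1 clones, 0.65, 0.6 and 0.12 in cumulus clones, against 0.69, 1.14 and 0.56 in XX IVF blastocysts, with a change of -0.91 ± 0.29 (SE, adjusted p = 0.0381) in XX CA1 clones, not called without XX IVF replicate 1, 2 or 3 or XX CA1 replicate 1, 2 or 3 (adjusted p 0.0522 to 0.169). Another probe of Cdk2 changed the other way in these groups, by 0.49 in XY CA1, 0.2 in Sertoli and 0.66 in XX CA1 clones. The fall therefore rests on 1 probe.

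Cyclin E1 (Ccne1) was 5.01, 4.71, 4.96 and 4.81 in XY Purkinje clones, 5.46, 5.57, 5.41 and 5.13 in XY CA1 clones, 5.19, 4.81, 5.39 and 5.83 in Sertoli clones, against 4.03 to 4.86 (median 4.33, n = 7) in XY IVF blastocysts. It rose by 1.01 ± 0.2 (SE, adjusted p = 0.0003) in XY CA1 clones, all above the highest IVF blastocyst, and by 0.92 ± 0.2 (SE, adjusted p = 0.00113) in Sertoli clones, with overlap. In females it was 4.9, 5.31, 5.18 and 4.41 in XX Purkinje clones, 6.05, 6.09, 5.51 and 5.4 in XX CA1 clones, 4.7, 4.02 and 4.57 in cumulus clones, against 4.89, 4.5 and 5.07 in XX IVF blastocysts, and XX CA1 clones rose by 0.95 ± 0.24 (SE, adjusted p = 0.00993), a call lost without XX IVF replicate 2 (adjusted p = 0.0667). The other Ccne1 probe changed by 0.07, 0.04 and 0.35 in XY CA1, Sertoli and XX CA1 clones. Cyclin E2 (Ccne2) rose in Sertoli clones by 1.24 ± 0.36 (SE, adjusted p = 0.0115), close to the floor, a call lost without Sertoli replicate 2 (adjusted p = 0.0503). Over all 55 calls, 20 were of genes with another probe, and for 7 calls, of 5 genes, another probe had the opposite sign.

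Cdkn1b (p27), an inhibitor of cyclin E with Cdk2, was -1.71, -2.51, -0.9 and -0.49 in XY Purkinje clones, -0.4, 0.13, -0.75 and -1.07 in XY CA1 clones, -0.66, -0.32, -0.95 and -1.91 in Sertoli clones, against -2.66 to -1.12 (median -2.04, n = 7) in XY IVF blastocysts. XY CA1 clones lay above every IVF value and rose by 1.35 ± 0.4 (SE, adjusted p = 0.0119), a call lost without XY CA1 replicate 2 (adjusted p = 0.0601). In females it was -2.2, -0.77, -0.19 and -0.97 in XX Purkinje clones, -1.41, -1.91, -2.29 and -1.22 in XX CA1 clones, -2.14, -0.82 and -1.7 in cumulus clones, against -2.81, -2.34 and -2.46 in XX IVF blastocysts. All 11 female clones were above the 3 IVF blastocysts, and XX Purkinje clones rose by 1.5 ± 0.49 (SE, adjusted p = 0.0309). That call was lost without XX Purkinje replicate 2, 3 or 4 or XX IVF replicate 1, 2 or 3 (adjusted p 0.0581 to 0.106), and without all 3 dim arrays the change was 0.33 (adjusted p = 0.934).

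Among the remaining regulators, Rb1, the retinoblastoma protein that restrains E2F, rose in XY Purkinje clones by 1.59 ± 0.53 (SE, adjusted p = 0.0255), and another of its probes changed by 0.05. It was 1.97, 2.83, 1.87 and 2.17 in XY Purkinje clones, against -0.89 to 1.62 (median 0.64, n = 7) in XY IVF blastocysts, without overlap, and the rise was not called without XY Purkinje replicate 2 or 4 or XY IVF replicate 1 (adjusted p 0.0568 to 0.0804). Cdc25b, a phosphatase that activates CDKs, rose there by 0.9 ± 0.33 (SE, adjusted p = 0.0384), while another of its probes changed by -1.09, and the rise was not called without XY Purkinje replicate 2, 3 or 4 or XY IVF replicate 1, 6 or 7 (adjusted p 0.0621 to 0.181). Cdc25c, of the same family, fell, with a change of -0.73 ± 0.21 (SE, adjusted p = 0.0105) in XY CA1 and -0.88 ± 0.21 (SE, adjusted p = 0.00334) in Sertoli clones, while another of its probes changed by 0.21 and -0.27. Wee1, which inhibits Cdk1, rose in Sertoli clones by 1.03 ± 0.34 (SE, adjusted p = 0.025), a call lost without Sertoli replicate 2 or 3 (adjusted p 0.0567 to 0.0588). Chek1, a checkpoint kinase, rose there by 0.64 ± 0.24 (SE, adjusted p = 0.0477), a call lost without XY IVF replicate 1, 2, 4, 6 or 7 or Sertoli replicate 1, 2, 3 or 4 (adjusted p 0.0559 to 0.102).

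Of the D cyclins, which pair with Cdk4 and Cdk6 early in the cycle, Ccnd1 fell in XX Purkinje and XX CA1 clones and Ccnd3 in XX Purkinje clones. Cyclin D1 lay on the floor in all 4 XX Purkinje and all 4 XX CA1 clones, against -2.20, -3.25 and -1.74 in XX IVF blastocysts. It was not well above background on any XX Purkinje array, where a 2.08-fold fall (adjusted p = 0.00779) was set by the floor. It was well above background on 3 of 4 XX CA1 arrays, with a change of -1.06 ± 0.28 (SE, adjusted p = 0.0114) also set by the floor. With normexp the XX Purkinje change was 0.05 (adjusted p = 0.966). The XX Purkinje call was lost without XX IVF replicate 3 (adjusted p = 0.0925) and the XX CA1 call without XX IVF replicate 1 or 3 (adjusted p 0.0532 to 0.115). Cyclin D3 (Ccnd3) fell in XX Purkinje clones with a change of -0.89 ± 0.29 (SE, adjusted p = 0.0286), a call lost without XX Purkinje replicate 2 or 4 or XX IVF replicate 1 or 2 (adjusted p 0.0708 to 0.163), and its change in XX CA1 clones was -0.04. Cdk4, Cdk6, Ccnd2, cyclin A2 (Ccna2), Cdc25a, Cdkn2c and E2f1 passed in no comparison with IVF.

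Replication and mitosis genes were set against each other on each array, as the median over the genes of a role after subtracting the same-sex IVF mean. Each IVF blastocyst was itself part of the mean subtracted from it, which draws IVF values towards 0 and narrows their range. In XY Purkinje clones the replication median was 0.11 ± 0.16 and the mitosis median -0.29 ± 0.21 (SD, n = 4), against 0.01 ± 0.20 and -0.01 ± 0.18 in XY IVF blastocysts (n = 7). Replication minus mitosis was 0.40 ± 0.17 in these clones, with a range of 0.16 to 0.57, against 0.02 ± 0.20 and a range of -0.27 to 0.27 in XY IVF. The groups overlapped. Sertoli clones stood at 0.35 ± 0.14 for replication and 0.12 ± 0.09 for mitosis. As a median change over genes, replication in Sertoli clones was 0.28, and 0.15 with median scaling, 0.03 with quantile normalization and 0.33 with normexp. XY CA1 clones stood at -0.02 ± 0.25 and -0.14 ± 0.14.

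The order was turned in 2 of the female groups. Replication minus mitosis was -0.30 ± 0.09 in cumulus clones, from -0.40 to -0.23, and -0.15 ± 0.16 in XX Purkinje clones, from -0.35 to 0.03, against 0.00 ± 0.06 and a range of -0.04 to 0.07 in XX IVF blastocysts. Cumulus clones did not overlap with IVF, but the IVF range is narrowed by this centring, so the gap cannot be weighed. Their replication median was -0.49 ± 0.26 and their mitosis median -0.20 ± 0.33 (SD, n = 3). XX CA1 clones stood at 0.27 ± 0.36 and 0.18 ± 0.18, with replicate 3 apart at -0.24 for replication. These levels depend on the scaling. The median change of replication genes in XY Purkinje clones was 0.03, but -0.31 with median scaling, -0.25 with quantile normalization and -0.39 with normexp, while the median over all genes went to -0.14, -0.01 and 0.28, and the mitosis median stayed below it (-0.53 to -0.68). In XX Purkinje clones the all-gene median was 0.08, and -0.33, 0.00 and 0.28 under the same 3, the replication median of -0.16 was -0.77, -0.61 and -0.67, and the mitosis median of 0.13 was -0.48, -0.25 and -0.36.

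**Figure D5:**
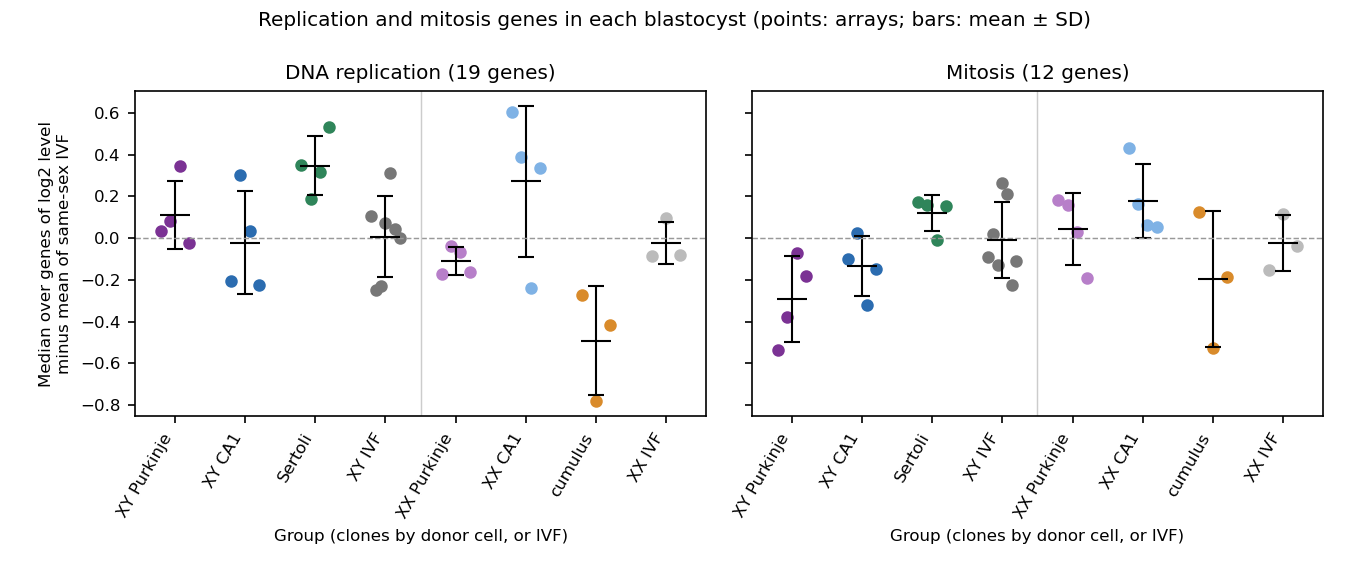
Median over the replication genes (left) and mitosis genes (right) of each array's log2 level minus the mean of IVF blastocysts of the same sex, by group, with points for arrays and mean and SD bars. Cumulus clones are lowest for replication at -0.49 ± 0.26, and XY Purkinje clones are lowest for mitosis at -0.29 ± 0.21.

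The 2 neuronal donors were also set against each other. With male donors 3 genes were higher and 1 was lower in Purkinje than in CA1 clones, beside 18.4% of all genes (10.9% higher, 7.54% lower): Pola1 by 1.51 ± 0.28 (SE, adjusted p = 0.000464), Mcm4 by 0.78, Cdk2 by 0.99 and Orc1 with a change of -0.63. For Pola1 the 4 Purkinje clones (4.01 to 5.08) were all above the 4 CA1 clones (2.86 to 3.23). With female donors 1 gene, Cdc25c, was higher in Purkinje clones and 9 were lower, beside 11% of all genes (6.19% higher, 4.82% lower). The 9 were the replication genes Orc1, Mcm2, Mcm3, Mcm7 and Cdc45, and Bub1b, Ccnd3, Ccne1 and E2f1. Cdc45 was 1.58, 0.72, 1.1 and 0.7 in XX Purkinje clones, against 1.59, 2.5, 2.34 and 2.46 in XX CA1 clones, lower, with a change of -1.2 ± 0.24 (SE, adjusted p = 0.00236), Mcm7 was lower, with a change of -1.06 ± 0.2 (SE, adjusted p = 0.0014), and E2f1, the transcription factor of S phase genes, with a change of -1.23 ± 0.38 (SE, adjusted p = 0.0363). 1 XX CA1 spot of Mcm2 was left out as an outlier. Orc1, Mcm7 and Cdc45 in females and Pola1 in males were called whichever single array was left out. Without the dim Purkinje arrays no call in males was kept, and every sign in both sexes was. Only 1 XX Purkinje array was then left, so calls in females were not counted.

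Neuronal clones were set against Sertoli clones on the male side, all on arrays of the newer set. In XY Purkinje clones Orc1, Bub1b and Cdk1 were lower (3 of 50), beside 4.77% of all genes (3.35% higher, 1.42% lower), with changes of -0.93 ± 0.22 (SE, adjusted p = 0.0108), -0.91 and -0.82. Leaving out XY Purkinje replicate 4 ended all 3 calls, and Sertoli replicate 1 or 2 or XY Purkinje replicate 1 or 3 left 1. In XY CA1 clones 7 genes were lower and none higher, beside 11.7% of all genes (5.46% higher, 6.25% lower). They were Pola1 with a change of -1.39 ± 0.28 (SE, adjusted p = 0.00199), Ccne2 with a change of -1.32, Chek1 with a change of -1.11, Cdk1 with a change of -1.09 ± 0.22 (SE, adjusted p = 0.00216), Rrm2 with a change of -0.84, Mcm4 with a change of -0.8 and Birc5 with a change of -0.66. Of these, Pola1 and Cdk1 were called whichever array was left out, and 2 to 4 of the 7 were called without Sertoli replicate 1, 2, 3 or 4 or XY CA1 replicate 3 or 4.

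Whether the clone minus IVF change differed between the sexes was tested as an interaction. For Purkinje donors 0 of the 50 genes passed, beside 0.0567% of all genes (0.0441% higher and 0.0126% lower in the XY difference), with a smallest adjusted p of 0.32 and 8 genes at an unadjusted p under 0.05. For CA1 donors 0 passed, beside 1.07% of all genes (0.58% higher, 0.485% lower), with a smallest adjusted p of 0.196 and 6 genes at an unadjusted p under 0.05. The shares of all genes at the unadjusted threshold were not counted. The 6 comparisons with IVF share the control blastocysts of a sex, and the changes of a gene in groups of 1 sex are not independent.

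Other genes of the same 3 processes were counted from lists that hold none of the 50. Of 36 other replication genes, 6 rose and 9 fell in XY Purkinje clones (41.7%, beside 28.6% of all genes), 4 rose and 11 fell in XY CA1 clones (41.7%, beside 30.9%), and 5 rose and 2 fell in Sertoli clones (19.4%, beside 25.7%). In females 3 rose and 4 fell with Purkinje (19.4%, beside 19.7%), 5 rose with CA1 (13.9%, beside 13.3%) and 4 fell with cumulus donors (11.1%, beside 5.29%). Mcm10, which helps to fire origins, rose by 1.27 (adjusted p = 1.11e-05) in Sertoli, 1.17 (adjusted p = 1.64e-05) in XY CA1 and 1.13 (adjusted p = 0.00108) in XX CA1 clones. Subunits of the replicative polymerases changed in both directions in Purkinje clones. Pold3 rose by 0.99 (adjusted p = 0.00242) in XY and 1.25 (adjusted p = 0.00301) in XX. Pold2 fell, with a change of -2.02 (adjusted p = 0.00055) in XY and -1.93 (adjusted p = 0.00706) in XX, Pold1 fell, with a change of -1.02 (adjusted p = 0.0146) in XY and -1.17 (adjusted p = 0.0297) in XX, and Pola2 fell, with a change of -1.88 (adjusted p = 0.000968) in XY. Pole and Pole2 passed in neither. Fen1, the flap nuclease of lagging strands, fell, with a change of -1.87 (adjusted p = 3.61e-06) in XY CA1 clones, and Rpa1, which coats single strands, with a change of -1.08 (adjusted p = 0.0124) in cumulus clones. The median change of these 36 genes in cumulus clones was -0.38, with 27 of 36 below 0.

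Of 35 other mitosis genes measured, 3 rose and 5 fell in XY Purkinje (22.9%, beside 28.6% of all genes), 5 rose and 8 fell in XY CA1 (37.1%, beside 30.9%) and 9 rose and 4 fell in Sertoli clones (37.1%, beside 25.7%). In females 5 rose and 3 fell in Purkinje (22.9%, beside 19.7%), 5 rose and 2 fell in CA1 (20%, beside 13.3%) and 3 fell in cumulus clones (8.57%, beside 5.29%). Ect2, an exchange factor needed for cytokinesis, rose by 2.12 (adjusted p = 0.000425) in XY Purkinje, 2.79 (adjusted p = 0.000418) in XX Purkinje and 1.71 (adjusted p = 0.00321) in Sertoli clones. Mad1l1, the checkpoint partner of Mad2l1, rose in every clone group but cumulus, by 0.87 in XX Purkinje to 1.82 (adjusted p = 9.08e-07) in XY CA1 clones. Espl1, separase, fell in every clone group but XX CA1, with a change of -1.5 (adjusted p = 6.74e-05) in XY Purkinje and -1.48 (adjusted p = 0.00835) in cumulus clones. Smc2, a condensin subunit, fell in 4 clone groups, among them with a change of -1.37 (adjusted p = 0.000939) in XY CA1 and -1.86 (adjusted p = 0.00127) in XX CA1 clones.

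Of 32 other CDK control genes measured, 3 rose and 2 fell in XY Purkinje (15.6%, beside 28.6% of all genes), 3 rose and 5 fell in XY CA1 (25%, beside 30.9%) and 6 rose and 4 fell in Sertoli clones (31.2%, beside 25.7%). In females 2 rose and 1 fell in each of Purkinje and CA1 clones (9.38%, beside 19.7% and 13.3%), and none passed in cumulus clones. Cdkn1a (p21), the CDK inhibitor induced by p53, rose by 3.38 (adjusted p = 9.47e-05) in XY Purkinje, 2.88 (adjusted p = 0.00035) in XY CA1 and 1.64 (adjusted p = 0.0356) in Sertoli clones. Fbxw7, the ubiquitin ligase adaptor that removes cyclin E, fell, with a change of -2.28 (adjusted p = 0.000311) in XY CA1 and -2.76 (adjusted p = 5.99e-05) in Sertoli clones. Foxm1, a transcription factor of mitosis genes, rose by 1.21 (adjusted p = 0.000297) in XY CA1, 0.64 (adjusted p = 0.0447) in Sertoli and 1.34 (adjusted p = 0.00274) in XX CA1 clones and was lower in Purkinje than in CA1 clones of both sexes, with a change of -1.46 and -1.25.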

How the data were processed

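Agilent one-colour 4x44K arrays measured the amplified RNA of single blastocysts. Spot intensities are the deposited processed signals that the authors' Feature Extraction software wrote, versions 9.5.3.1 and 10.5.1.1 per the file headers, background-corrected and not normalized between arrays. The deposited value table, on a log2 scale with a centring that the labels do not state, was an alternative. Control spots and outlier spots were left out. Each signal was divided by its array's 75th percentile, floored at 0.0912 and put on the log2 scale, and 22.3% of values lay on the floor. The brightest probe stood for a gene. limma 3.58.1 fitted 8 group means on all 33 arrays, with Benjamini-Hochberg adjustment over 15860 genes. Of 41174 probes, 22944 were named by accession, 6664 by symbol and 3108 by an older symbol, and 8458 kept the file's name. The newer files carry no gene name and no mean signal, so probes were named through the older files and the normexp alternative used median signals. Replicates correlated at 0.930 to 0.983 over 57 pairs. The number of arrays limits the precision. Replicate numbers did not pair the samples. The steps were tested on simulated data. Members and lists were chosen with earlier results of these data known. Genes named in full were, per role, up to 4 with the most calls over the clone comparisons, ties going to the larger change; other lists gave up to 4 called genes per list and comparison, those of largest change.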

Additional observations from a re-analysis of the deposited data

Results flagged for a closer look

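Among 84 groups of values examined, 2 had an array far from the others, where chance gives about 1 in 20. Kif11, the spindle motor, was at 1.54 in Sertoli clone replicate 3, against 2.04 to 2.14 in the other Sertoli clones. The median over the mitosis genes was -0.0085 in the same clone, against 0.152 to 0.173 in the others.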

How the results depend on the processing

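The clone minus IVF counts moved with the scaling and the arrays, and the causes were not tested. In XY Purkinje clones (11 called) 7 were called with no filter, 7 with the replicate block and 3 without the dim arrays. Of all genes 13.8%, 22.2% and 10.6% were called under these settings, against 28.6% in the main fit. Without the dim arrays replication minus mitosis was 0.467. In XY CA1 clones (10) quantile normalization gave 16 and normexp 2, beside 30.6% and 19.4% of all genes, against 30.9% in the main fit. In Sertoli clones (18) median scaling gave 7, quantile normalization 11, normexp 3 and the replicate block 10, with replication minus mitosis at 0.383 under the block. Of all genes these settings called 20.8%, 24.1%, 12.3% and 19.4%, against 25.7% in the main fit. In XX Purkinje clones (8) median scaling gave 17, quantile normalization 13 and a fit on only the groups compared 4. The shares of all genes were 20.5%, 16.3% and 11.5%, against 19.7% in the main fit. Leaving out the dim arrays left 1 XX Purkinje array, so no count is given. In XX CA1 clones (4) quantile normalization gave 7, beside 11.6% of all genes, against 13.3% in the main fit. Median scaling and normexp gave 1 each there, a fit on only the groups compared 0, and no filter, a filter on every group, the mean of probes and slide as a random block 2 each. In the same order these settings called 9.92%, 3.87%, 4.79%, 5.69%, 16.5%, 10.9% and 10.8% of all genes. In cumulus clones (4) a lower floor, no filter and the authors' values gave 2, median scaling, normexp and the slide block 1, and the groups compared alone 0. Of all genes these settings called, in the same order, 4.43%, 1.975%, 5.2%, 3.18%, 1.23%, 3.6% and 1.41%. The main fit called 5.29%.

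For XY Purkinje minus CA1 (4) median scaling gave 1, quantile normalization 7, normexp 12, no filter 2, the mean of probes 2 and leaving out dim arrays 0. For XX Purkinje minus CA1 (10) median scaling gave 24, normexp 4 and the groups compared alone 2. For XY Purkinje minus Sertoli (3) quantile normalization gave 6, normexp 7 and leaving out dim arrays 0. For XY CA1 minus Sertoli (7) median scaling gave 3, normexp 0, no filter 3 and the slide block 4. For these comparisons between clones the shares of all genes under the alternatives were not counted. Mcm6 in XY Purkinje clones turned to -0.26 under normexp.

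Leaving out 1 array in turn gave 7 to 14 calls in XY Purkinje, 7 to 11 in XY CA1, 11 to 17 in Sertoli, 4 to 10 in XX Purkinje, 1 to 8 in XX CA1 and 1 to 4 in cumulus clones against IVF. Leaving out 1 array gave 2 to 6 for XY and 4 to 11 for XX Purkinje minus CA1, 0 to 2 for XY Purkinje and 2 to 7 for XY CA1 minus Sertoli, and 0 to 0 for the interactions. The counts fell by more than 1.5 times without XY Purkinje replicate 3 or 4, Sertoli replicate 2 (11), XX Purkinje replicate 2, 3 or 4 or any XX IVF array. XX CA1 counts were 1 or 2 without any XX IVF array or CA1 replicate 2 and 8 without CA1 replicate 3, and cumulus counts 1 or 2 without any XX IVF array or cumulus replicate 2. Purkinje minus CA1 counts fell likewise without XY Purkinje replicate 4 or XY CA1 replicate 1 or 4, and without XX Purkinje replicate 3 or 4 or XX CA1 replicate 2 or 4. Replicate numbers pair no samples, and the replicate block changed no other count by that much. Replication minus mitosis was here taken between median changes over genes, which is another measure than the per-array medians given above. With 1 array left out it ran from 0.184 to 0.420 in XY Purkinje, 0.084 to 0.2 in XY CA1, 0.0628 to 0.252 in Sertoli, -0.371 to -0.160 in XX Purkinje, -0.114 to 0.172 in XX CA1 and -0.432 to -0.256 in cumulus clones. Of the role medians, replication in XY CA1 clones was -0.17 with median scaling and -0.16 with quantile normalization, and quantile normalization gave -0.12 for replication and -0.04 for mitosis in XX CA1 and -0.05 for mitosis in Sertoli clones. Signal over background limits Ccnd1, Ccnd2, Cdk6 and Ccne2, which were not well above background on every array.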
